A study of Homo sapiens with 6 samples.

Results

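The 9 genes described here belong to the aryl hydrocarbon receptor (AHR) pathway and to the enzymes that metabolise foreign compounds: AHR, ARNT, AHRR, TIPARP, CYP1A1, CYP1B1, CYP2C8, CYP3A5 and UGT1A6. They were taken by name, as a list of the receptor, its partner, its feedback inhibitors, its target enzymes and the enzymes that oxidise paclitaxel. No cut on a measured value was used, but earlier results of these data were known when the list was chosen. The list holds 9 of the 28395 genes counted, and 7 of them were among the 13950 genes with enough counts to be tested. RNA was sequenced from the human triple-negative breast cancer line MDA-MB-468 and from MDA-MB-468-PR, a paclitaxel-resistant derivative made by growing the parental cells for 2 months with 3 to 4.5 nM of this microtubule-stabilising drug. The data comprise 3 libraries of the parental line (control) and 3 of the derivative (resistant), all labelled untreated at harvest and grown in high-glucose DMEM with heat-inactivated fetal bovine serum. The resistant libraries came from 1 derivative, so exposure to the drug and other divergence of that culture cannot be told apart. Control 1 and resistant 1 carry a batch date in 2020 and the other 4 libraries a date in 2021, and the labels do not say which step the date refers to.

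AHR is a transcription factor that rests in the cytoplasm in a complex with heat shock protein HSP90 and other chaperones. A ligand, such as a polycyclic aromatic hydrocarbon or a tryptophan metabolite, sends it to the nucleus, where it pairs with ARNT and binds DNA at a short core motif near target genes. Among the targets are the oxidising enzymes CYP1A1 and CYP1B1, the conjugating enzyme UGT1A6, and AHRR and TIPARP, which in turn restrain the receptor. CYP2C8 and CYP3A5, with CYP3A4, oxidise paclitaxel in the liver.

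AHR binds its motif in promoters and in enhancers that can lie farther from a gene. To show what the motif looks like, the 250 bases upstream of 4 targets are given, for the first annotated start of each, written 5′ to 3′ on the gene's strand, with the core motif GCGTG or its reverse complement CACGC in capitals. The sequences are RefSeq's, build GRCh38.p14, and hold no measurement from these libraries. UGT1A6, whose first window lies at chr2:233691452-233691701 on the plus strand, has 1 core, with its last base 196 bases before the annotated start. CYP1A1 (chr15:74725529-74725778, minus strand) has 1 core, TIPARP (chr3:156674340-156674589, plus strand) has 2 on the opposite strand, and AHRR (chr5:321464-321713, plus strand) has 1.
UGT1A6: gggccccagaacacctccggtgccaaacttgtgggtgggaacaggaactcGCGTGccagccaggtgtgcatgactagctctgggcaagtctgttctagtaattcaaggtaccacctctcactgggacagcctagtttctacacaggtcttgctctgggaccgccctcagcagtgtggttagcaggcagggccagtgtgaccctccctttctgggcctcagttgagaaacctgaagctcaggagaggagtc
CYP1A1: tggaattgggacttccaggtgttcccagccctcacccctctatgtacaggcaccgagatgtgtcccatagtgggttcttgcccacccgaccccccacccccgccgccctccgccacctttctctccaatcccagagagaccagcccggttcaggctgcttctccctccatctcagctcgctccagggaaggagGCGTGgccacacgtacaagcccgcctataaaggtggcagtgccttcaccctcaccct
TIPARP: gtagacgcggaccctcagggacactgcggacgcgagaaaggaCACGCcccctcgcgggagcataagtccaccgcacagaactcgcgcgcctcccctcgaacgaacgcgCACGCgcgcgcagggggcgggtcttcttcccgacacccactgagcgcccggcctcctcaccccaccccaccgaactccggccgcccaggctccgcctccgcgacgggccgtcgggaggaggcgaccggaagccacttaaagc
AHRR: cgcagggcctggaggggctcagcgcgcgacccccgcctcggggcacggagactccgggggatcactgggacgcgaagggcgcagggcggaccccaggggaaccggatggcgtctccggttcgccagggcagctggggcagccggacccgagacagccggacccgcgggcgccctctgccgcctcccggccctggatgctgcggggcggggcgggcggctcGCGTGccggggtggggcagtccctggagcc

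Of the 9 genes, 8 had an upstream sequence in the RefSeq table, and CYP1B1 did not. Some genes have several annotated starts, which gave 12 windows for the 8 genes. The core was found on either strand in 5 of the 12 windows (41.7%), the 4 shown and a second window of AHRR with 2 cores. It was in neither the second window of UGT1A6 nor the other 2 of TIPARP, nor in those of AHR, ARNT, CYP2C8 and CYP3A5. Among all 35116 upstream windows of that length 32.2% held the core, and 42.4% of the 16102 windows of tested genes did. The longer form TNGCGTG, searched on both strands and containing the core, was found in the windows shown for UGT1A6 and AHRR. It was in 4.52% of all windows and in 5.63% of the windows of tested genes. These matches describe letters only, and binding was not measured.

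Between the lines, UGT1A6 was the 1 of 7 tested genes that rose in resistant cells, by 3.65-fold, and none fell. Over all tested genes 11.7% passed the test, 6.23% higher and 5.48% lower in resistant cells, so 1 gene of 7 (14.3%) is near that background. The receptor, its partner, its feedback genes and both CYP1 enzymes did not pass. The 7 log2 fold changes had a median of 0.30 (5 above 0), beside a median of -0.0039 over all tested genes. An unadjusted edgeR p under 0.05 was reached by 3 of the 7, all higher, beside 26.4% of all tested genes. DESeq2 called 3 (15.8% of all genes) and limma voom 1 (11.3%). The values by library follow in CPM, the count scaled to the size of its library by TMM.

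**Figure D1:**
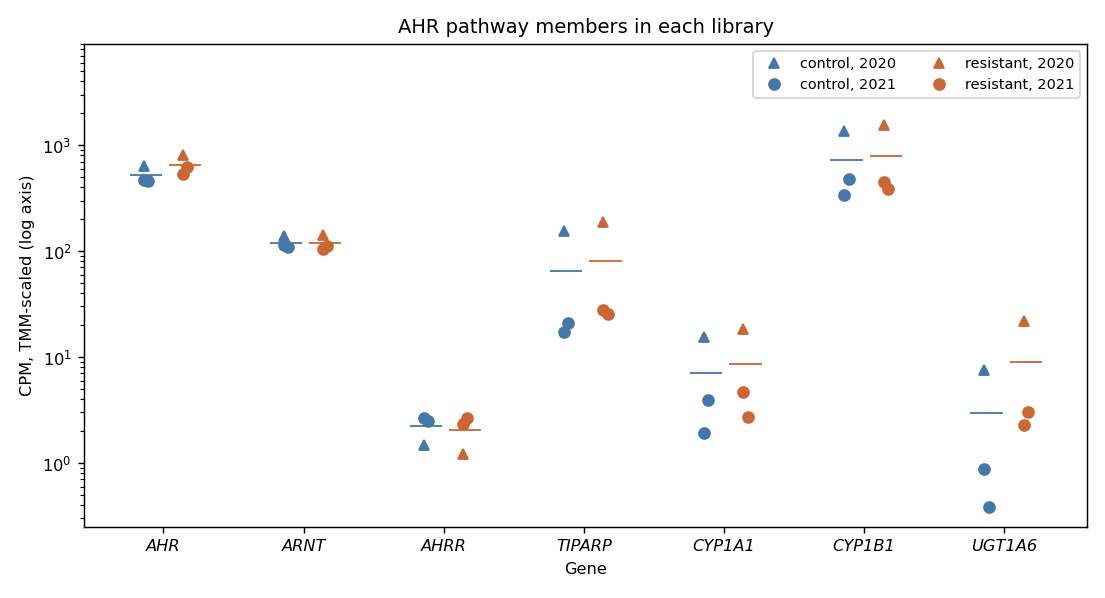
CPM (TMM-scaled, log axis) of the 7 tested genes in each library, with controls in blue, resistant libraries in orange, triangles for 2020, circles for 2021 and a line at each group's mean. The 2020 libraries stand above the 2021 libraries of both lines for every gene but AHRR, where they stand below, and UGT1A6 is higher in resistant than in control libraries within each year.

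AHR itself (chr7:17298652-17346147) was at 628, 471 and 455 CPM in controls 1, 2 and 3 and at 808, 528 and 620 CPM in resistant 1, 2 and 3. In each batch every resistant library was above every control, but resistant 2 lay below control 1, so the groups overlapped across batches. The log2 fold change was 0.33 ± 0.12 (SE), from 518 ± 95.9 to 652 ± 143 CPM (mean ± SD, n = 3 each), and it did not pass edgeR's quasi-likelihood test, which had group and batch as terms (p after Benjamini-Hochberg adjustment 0.112). DESeq2 called it (adjusted p = 0.0187), the 1 of 16 alternatives that did. In bulk RNA, a change in the number of cells that express a gene and in RNA per cell cannot be told apart. ARNT (chr1:150809713-150876599), the partner that AHR needs on DNA, was at 137, 114 and 109 CPM in controls and 142, 105 and 111 CPM in resistant libraries. Its log2 fold change was -0.01 ± 0.09 (SE, adjusted p = 0.946), with a sign that turned under 4 alternatives, and the groups overlapped in full.

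Neither feedback gene passed the test, and for both the groups overlapped across batches. AHRR (chr5:321714-438285), which competes with AHR for ARNT, was at 1.47, 2.68 and 2.51 CPM in controls and at 1.21, 2.33 and 2.64 CPM in resistant libraries (log2 fold change -0.12 ± 0.21 SE, adjusted p = 0.743). TIPARP (chr3:156674590-156706770), an ADP-ribosyltransferase that modifies and limits AHR, was at 156, 17.1 and 21.2 CPM in controls and 186, 27.7 and 25.2 CPM in resistant libraries. As for AHR, the resistant libraries were above the controls within each batch and overlapped them across batches. The log2 fold change of TIPARP was 0.39 ± 0.11 (SE), just short of the threshold of 0.05 (edgeR adjusted p = 0.0551). It passed in 3 of 16 alternatives, without the filter on low counts (adjusted p = 0.0169), by DESeq2 (0.0226) and without control replicate 3 (0.0276).

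The CYP1 enzymes, the classical readouts of AHR activity, likewise overlapped between the lines. CYP1A1 (chr15:74719542-74725528), which hydroxylates polycyclic aromatic hydrocarbons, was at 15.5, 1.93 and 3.94 CPM in controls and 18.5, 4.71 and 2.69 CPM in resistant libraries. In 2021 one resistant library lay above both controls and the other between them, and the log2 fold change of 0.30 ± 0.29 (SE) did not pass (adjusted p = 0.570). CYP1B1 (chr2:38067509-38076151), which also hydroxylates oestradiol, was at 1353, 335 and 475 CPM in controls and 1545, 452 and 385 CPM in resistant libraries. Its log2 fold change was 0.09 ± 0.16 (SE, adjusted p = 0.741), and the 2021 libraries of both lines were interleaved.

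UGT1A6 (chr2:233691702-233773300), which attaches glucuronic acid to phenols and other small molecules, had 305, 49 and 26 counts in controls and 809, 152 and 294 counts in resistant libraries. On the CPM scale these were 7.58, 0.876 and 0.384 against 21.8, 2.28 and 3.05. Every resistant library was above every control of its own batch, while control 1 was above resistant 2 and 3, so the groups overlapped across batches. The log2 fold change was 1.87 ± 0.28 (SE, adjusted p = 0.00522), with 1.52 within 2020 (1 library against 1) and 2.15 within 2021 (2 against 2). The call held in 15 of 16 alternatives and was lost without the batch term (log2 fold change 1.63, adjusted p = 0.690). The alternatives are not all separate. Those without control 1, without resistant 1 and on 2021 alone rest on the same 2021 libraries (log2 fold changes 2.092, 2.096 and 2.093).

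**Figure D2:**
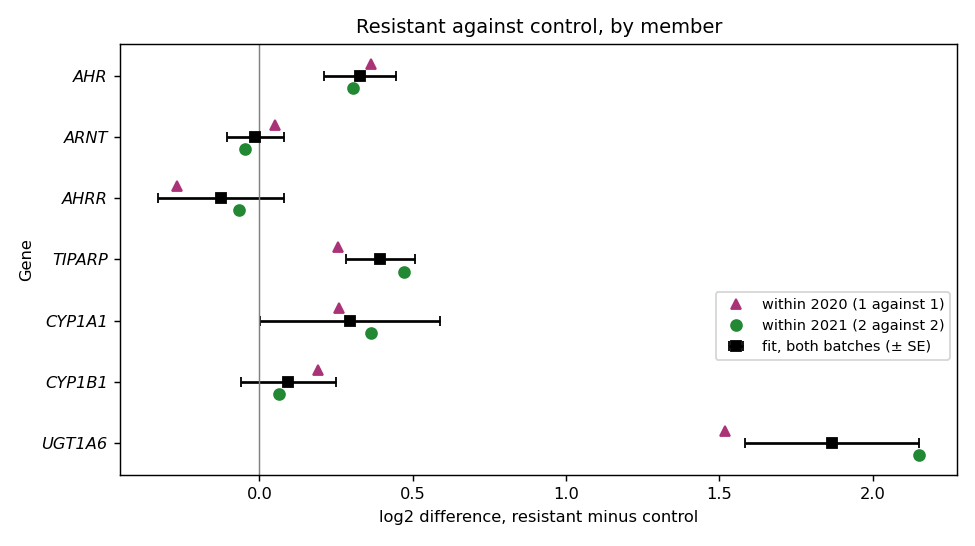
Resistant minus control difference (log2) of each tested gene, with the fit over both batches as black squares with bars of ± SE, triangles within 2020 and circles within 2021. UGT1A6 lies between 1.52 and 2.15 in both batches, and the other 6 genes lie between -0.27 and 0.47.

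AHR, TIPARP and UGT1A6, 3 of 7, had every resistant library above every control within both batches, which 21.8% of tested genes did. Without regard to batch, 0 of 7 had groups that did not overlap, against 20.9% of tested genes. A fit with a batch by group term called 0 of 7 genes and 0 (0%) of all 13950 tested genes by edgeR, with 187 genes and none of the 7 at an unadjusted p under 0.05. DESeq2 called 2 genes and limma voom 0, none of them among the 7.

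The paclitaxel-oxidising enzymes were at or near 0. CYP2C8 (chr10:95036772-95069497), which makes the main hydroxylated product of paclitaxel, had 0, 0 and 2 counts in controls and 1, 0 and 6 counts in resistant libraries. The ratio of the summed counts, scaled by library size, was 2.87 with a 95% interval of 0.546 to 28.3, which covers counting error only, and the gene was not tested. CYP3A5 (chr7:99648194-99679996) had 0 counts in all 6 libraries, which allows up to 3 counts, or 0.0312 to 0.0808 CPM, by counting error alone. A count of 0, here and below, can also come from how reads were captured or assigned to genes, which was not tested. CYP3A4, the liver enzyme that oxidises paclitaxel at another site, had 0 counts in 5 libraries and 3 counts in resistant 3.

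Levels between genes were set side by side per length, as RPKM (CPM divided by the kilobases of annotated exon, mean of 6 libraries). The libraries were enriched with exome probes, while the length counts all annotated exon bases. How far RPKM reflects abundance between genes was thus not tested. By mean RPKM CYP1B1 was the highest of the 9 at 125.9 RPKM, above 98.2% of the 13712 tested genes with a length. AHR followed at 72.4 RPKM (above 96.4%), then ARNT at 18.4 (80.8%) and TIPARP at 14.3 (75.3%). The order was not the same in both batches. CYP1B1 was at 225 and 256.8 RPKM in 2020, above AHR, and at 55.8 to 78.9 RPKM in 2021, where AHR was above it in control 2 and resistant 3. TIPARP, at 30.9 and 36.9 RPKM, was above ARNT in 2020, and at 3.39 to 5.49 RPKM it was below ARNT in all 4 libraries of 2021. Every AHR value was above every ARNT value. CYP1A1 was at 2.29 RPKM, UGT1A6 at 1.16 and AHRR at 0.279 (above 11.95% of tested genes), and the libraries of CYP1A1 and UGT1A6 overlapped, as did those of UGT1A6 and AHRR. CYP2C8 was at 0.0077 RPKM, below AHRR in every library, and CYP3A5 at 0.

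The batches differed in all 7 tested genes, each with a larger log2 difference than that between the lines. In 2021 AHR, ARNT, TIPARP, CYP1A1, CYP1B1 and UGT1A6 were lower and AHRR was higher, all past edgeR's test of the batch coefficient. Over all tested genes 22.9% differed between the batches, with 11.4% lower in 2021. For the 6 genes that were lower, both 2020 libraries stood above all 4 libraries of 2021, and for AHRR both stood below. The 5th to 95th percentile of the batch difference over all tested genes was -0.76 to 0.86 (log2, 2021 minus 2020).

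Of the 7 tested genes, UGT1A6, TIPARP, CYP1A1 and CYP1B1 had the widest batch differences. UGT1A6 was 9.79-fold lower in 2021 (log2 difference -3.29 ± 0.28 SE, adjusted p = 4.00e-04), by 12.7-fold among controls and 8.23-fold among resistant libraries. TIPARP was 7.57-fold lower (-2.92 ± 0.11 SE, adjusted p = 1.98e-05), CYP1A1 5.14-fold (-2.36 ± 0.30 SE, adjusted p = 0.00393) and CYP1B1 3.51-fold (-1.81 ± 0.16 SE, adjusted p = 4.17e-04). All of these lay outside the 5th to 95th percentile range of tested genes and had the same direction in both lines. The receptor and its partner moved less, AHR by -0.47 ± 0.12 (SE, adjusted p = 0.0282) and ARNT by -0.35 ± 0.10 (adjusted p = 0.0340), both inside that range. AHRR, also a target, was 1.90-fold higher in 2021 (0.93 ± 0.23 SE, adjusted p = 0.0249), just above that range. Among 10 tested other genes reported as AHR targets, 3 were lower and 0 higher in 2021 (median log2 difference -0.21). Over all tested genes 11.4% were lower. With 2 libraries in 2020, the batch calls of AHR, ARNT and AHRR were lost without control 1 or without any of the resistant libraries (ARNT also without control 3), with adjusted p up to 0.317, and that of CYP1A1 without control 1 (0.0797) or resistant 1 (0.0702).

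**Figure D3:**
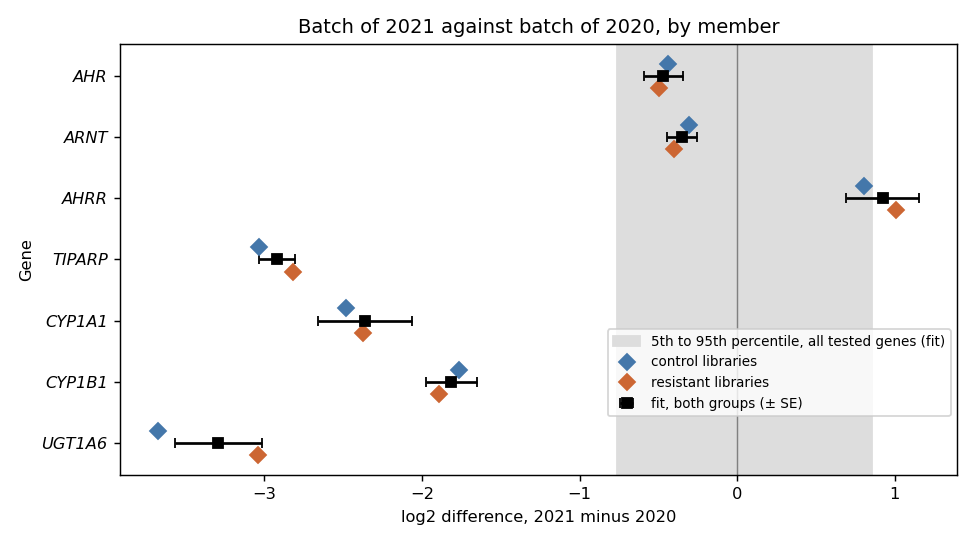
Difference between the batches (log2, 2021 minus 2020) of each tested gene, with the fit over both lines as black squares with bars of ± SE, blue diamonds for control and orange diamonds for resistant libraries, and the 5th to 95th percentile of all tested genes in grey. TIPARP, CYP1A1, CYP1B1 and UGT1A6 lie far below the grey band in both lines, and AHR and ARNT lie inside it. AHRR lies just above the band in the fit and in resistant libraries, and just inside it in controls.

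What the 2020 and 2021 libraries differed in, from culture to sequencing, was not tested. Each batch holds both lines, so the line difference could be fitted within batches. Of 10517 genes at 5 CPM or more, the 2 nearest to AHR over the 6 libraries were ATP8B1, a phospholipid transporter, and PRKCH, a protein kinase C, at root mean square differences of 0.0483 and 0.0490 (centred log2 CPM). UGT1A6 had no neighbour that close. TNFAIP3, an inhibitor of NF-κB signalling, and CXCL8, a chemokine, were nearest at 0.623 and 0.650, and both were also lower in 2021, by 8.98-fold and 10.4-fold. Between the lines TNFAIP3 was higher in resistant cells (log2 fold change 0.87, edgeR adjusted p = 0.0117), and CXCL8 did not pass (1.66, adjusted p = 0.209).

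UGT1A6 shares its last exons with the other UGT1A genes, since the 9 UGT1A genes of this locus each have a first exon of their own that is spliced to a common 3′ part. Of the 5180 exon bases annotated for UGT1A6, 1842 (35.6%) belong to it alone, 2278 are shared with 8 other UGT1A genes on the same strand and 1060 overlap 2 genes on the opposite strand. Reads of the shared part could be given to any of them or to none, so the UGT1A6 value is uncertain as to which transcript it counts. Other genes of the list had 67.7% (AHR) or more of their exon bases to themselves.

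The 3 other UGT1A genes with enough counts to be tested were higher in resistant cells. Their annotated starts, like that of UGT1A1, lie within the span of UGT1A6, and those of UGT1A7, UGT1A8, UGT1A9 and UGT1A10 lie before it. Whether their counts are separate from transcripts of UGT1A6 was not tested. UGT1A5 had 8, 1 and 2 counts in controls and 55, 21 and 59 in resistant libraries (log2 fold change 3.49 ± 0.50 SE, adjusted p = 0.00387). UGT1A4 had 9, 3 and 1 against 47, 18 and 66 (3.16 ± 0.57 SE, adjusted p = 0.00941). UGT1A3 had 12, 4 and 4 against 35, 18 and 45 (2.13 ± 0.42 SE, adjusted p = 0.0140). These genes have few counts, and the folds moved by more than 1.5 times from 11.2-fold for UGT1A5 (to 18.0-fold without control 1 and 18.1-fold without resistant 1) and from 8.95-fold for UGT1A4 (to 14.03-fold and 14.1-fold), while the call of UGT1A3, named after its values were seen, was lost without resistant 3 (adjusted p = 0.0696). UGT1A1, the bilirubin-conjugating enzyme, was too low to test, with 2, 1 and 0 counts against 23, 9 and 23, a scaled ratio of 15.0 (95% interval 4.88 to 75.1). UGT1A7 had 3, 3 and 0 counts in controls and 1, 6 and 3 in resistant libraries, which overlapped, and UGT1A8, UGT1A9 and UGT1A10 had 0 in all.

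UGT1A6 held most of the counts given to the 9 UGT1A genes. Its share, with exact 95% binomial intervals that cover counting error only, was 90.0% (86.3% to 93.0%), 80.3% (68.2% to 89.4%) and 78.8% (61.1% to 91.0%) in controls 1, 2 and 3. In resistant libraries it was 83.4% (80.9% to 85.7%), 67.9% (61.3% to 73.9%) and 60.0% (55.5% to 64.4%). The share was lower in every resistant library than in every control of its own batch. Across batches the shares of the groups overlapped, and their difference was not tested. Genes around the locus gave no call. Of 6 tested genes that are not UGT1A genes and lie within 500 kb (INPP5D, ATG16L1, DGKD, USP40, HJURP and MSL3B), 0 were called by edgeR, DESeq2 or limma voom and 0 had an unadjusted edgeR p under 0.05, with log2 fold changes from -0.21 to 0.16. Over all tested genes 11.7% were called by edgeR. The search around the locus was chosen after seeing the data.

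**Figure D4:**
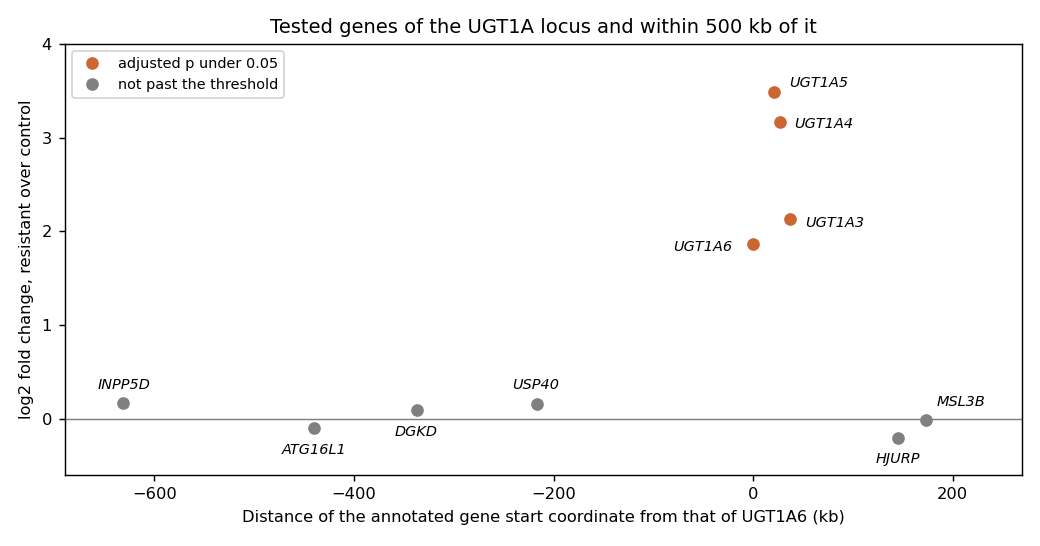
Log2 fold change of resistant over control for tested genes of the UGT1A locus and its surroundings, against the distance in kb of each gene's start coordinate from that of UGT1A6. The 4 tested UGT1A genes lie between 1.87 and 3.49 and the 6 surrounding genes between -0.21 and 0.16.

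The proteins that hold and assist AHR gave 0 higher and 2 lower calls by edgeR among 13 tested genes (15.4%, median log2 fold change 0.02). DESeq2 called 2 higher and 2 lower, limma voom 0 and 2, and at an unadjusted edgeR p under 0.05 there were 2 and 3. Over all tested genes the shares were 11.7% by edgeR, 15.8% by DESeq2, 11.3% by limma voom and 26.4% unadjusted. HSP90AB1 (chr6:44246194-44253883), a chaperone of the resting receptor, fell from 2611 ± 394 to 1588 ± 60.8 CPM (mean ± SD, n = 3, log2 fold change -0.72 ± 0.15 SE, adjusted p = 0.0185). CUL4B, the scaffold of a ubiquitin ligase that can contain AHR, fell by 0.48 ± 0.12 (log2 ± SE, adjusted p = 0.0317). For each, all resistant libraries were below all controls. Both calls were lost without control 1 or without any of the resistant libraries, with adjusted p up to 0.0853 for HSP90AB1 and 0.163 for CUL4B.

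Among other genes reported as AHR targets, 10 of 14 were tested, and 3 were higher and 1 was lower (40%, median log2 fold change 0.11). By the same test 11.7% of all tested genes passed. SERPINB2, a protease inhibitor, rose from 12, 12 and 16 counts in controls to 26, 231 and 193 in resistant libraries (log2 fold change 2.95 ± 0.50 SE, adjusted p = 0.00807). Its fold of 7.72 was 11.9 without control 1 and 11.96 without resistant 1, and the call held in all 16 alternatives. STC2, a secreted glycoprotein, rose 1.54-fold (adjusted p = 0.0107) and VAV3, a guanine nucleotide exchange factor, 1.37-fold (adjusted p = 0.0312), while MT2A, a metallothionein, fell 1.61-fold (adjusted p = 0.0350). The calls of STC2, VAV3 and MT2A were lost without resistant 2 or resistant 3 (adjusted p up to 0.167). NQO1, a quinone reductase used as a readout beside CYP1A1, had a log2 fold change of -0.02 (adjusted p = 0.931), and it is named after its value was seen.

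The enzymes of the tryptophan-kynurenine route, some of whose products are ligands of AHR, gave 0 calls in either direction among 7 tested of 12. This held by edgeR, DESeq2 and limma voom. The list holds early and late enzymes of the route, and not all of them make a ligand. At an unadjusted edgeR p under 0.05, 1 was lower. Over all tested genes 11.7% passed by edgeR and 26.4% reached that unadjusted p. KYNU, the most abundant, was at 226 ± 52.6 CPM in controls and 162 ± 27.3 in resistant libraries (log2 fold change -0.48 ± 0.20 SE, adjusted p = 0.163). The first enzymes of the route were at or near 0, with 0 counts of TDO2 in all libraries and 0 or 1 count of IDO1 in each.

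Most enzymes of drug oxidation were below the filter. Of 19 other cytochrome P450 genes of families 1 to 3, 4 were tested and 1 was higher (25%, beside 11.7% of all tested genes). This was CYP2R1, a vitamin D hydroxylase. It had 1.49 ± 0.679 CPM in controls and 3.58 ± 0.166 in resistant libraries (log2 fold change 1.36 ± 0.27 SE, adjusted p = 0.0146; 0.0801 without resistant 3). Of 11 genes of paclitaxel uptake, oxidation and efflux, 4 were tested, with 2 higher and 1 lower (75%, beside the same 11.7%). The efflux pumps ABCC1 (10.2 ± 0.780 to 16.5 ± 0.852 CPM, adjusted p = 0.00685; 0.0534 without resistant 3) and ABCB1 (adjusted p = 0.0251) rose, by log2 fold changes of 0.69 and 0.99. ABCC10 (chr6:43427541-43451994), a pump of the same family, fell by 0.74 (log2, adjusted p = 0.00326). ABCB1 lost its call without control 2 (0.0582), resistant 2 (0.0688) or resistant 3 (0.140). SLCO1B1 and SLCO1B3, the liver uptake carriers of paclitaxel, had 0 counts in all libraries.

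Among conjugating enzymes outside the UGT1A locus, 2 rose and 2 fell. Of 23 other UDP-glucuronosyltransferase genes and suppliers of their substrate, 6 were tested and 4 were higher (66.7%, beside 11.7% of all tested genes). These were the 3 UGT1A genes above, which share exons, and UGT8 (median log2 fold change of the list 1.48). UGT8, which makes galactosylceramide, rose by 0.84 ± 0.12 (log2 ± SE, adjusted p = 0.00425), with 9.96 ± 1.73 CPM in controls and 17.9 ± 2.96 in resistant libraries. Of 21 sulfo-, acetyl- and methyltransferase genes and sulfate suppliers, 11 were tested, with 1 higher and 2 lower (27.3%, median -0.09). NNMT, which methylates nicotinamide, had 9, 5 and 4 counts in controls and 127, 161 and 107 in resistant libraries, with groups far apart (log2 fold change 4.29 ± 0.43 SE, 19.6-fold, adjusted p = 0.00134), and the call held in all 16 alternatives. TPMT (chr6:18128311-18155169), which methylates thiopurines, fell 1.503-fold (adjusted p = 0.00941, lost without resistant 2 at 0.0553 or resistant 3 at 0.0694). TPMT, HSP90AB1 and ABCC10, all lower, lie on chromosome 6, and whether their falls are separate was not tested. SULT1E1, an oestrogen sulfotransferase, fell from 2.73 ± 1.10 to 1.18 ± 0.184 CPM (adjusted p = 0.0433), a call that was lost with the replicate block (0.0723), with upper quartile scaling, a minimum mean of 1 CPM or limma voom, and without control 1, control 3 or any resistant library (up to 0.188).

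The remaining lists gave no call by edgeR or limma voom, and DESeq2 called 1 nuclear receptor and 1 bHLH-PAS factor, both higher. At an unadjusted edgeR p under 0.05 there were 3 of the oxidase list, 3 nuclear receptors and 3 bHLH-PAS factors. Over all tested genes 26.4% reached that p, and 11.7% passed by edgeR, 15.8% by DESeq2 and 11.3% by limma voom. None of 18 tested genes of the P450 reductase, oxidases and hydrolases passed (of 21 listed, median log2 fold change -0.09), and the most abundant, EPHX1, an epoxide hydrolase, had a log2 fold change of -0.33 ± 0.13 (SE, adjusted p = 0.134). None of 6 tested xenobiotic nuclear receptors passed (of 12 listed, median -0.08). The nuclear receptors PXR (NR1I2) and CAR (NR1I3), which govern drug-metabolising genes in liver, had 0 counts in all libraries. RXRB and RXRG of the same list also had 0 in all, and whether any of these values reflects read assignment was not tested. VDR, the vitamin D receptor, had a log2 fold change of -0.34 ± 0.13 (SE, adjusted p = 0.142). None of 12 tested bHLH-PAS factors, the family to which AHR and ARNT belong, passed (of 13 listed, median 0.33). HIF1A, the hypoxia factor that also pairs with ARNT, had a log2 fold change of -0.16 ± 0.12 (SE, adjusted p = 0.443). Some genes stand in 2 lists, and no list was tested as a set.

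**Figure D5:**
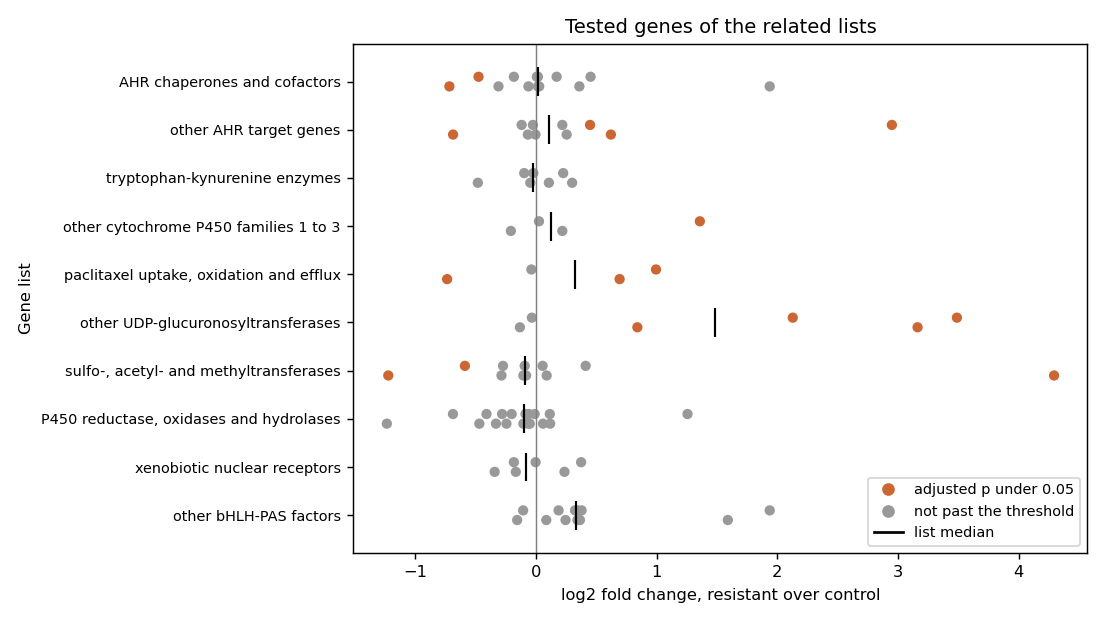
Log2 fold change of resistant over control for each tested gene of the 10 related lists, in orange where the adjusted p was under 0.05 and in grey elsewhere, with a black line at each list's median. The UDP-glucuronosyltransferase list has the highest median (1.48), set by 3 UGT1A genes that share exons, and NNMT is the point farthest to the right at 4.29.

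Library totals were 37889818 to 93680129 counts, lowest in the 2020 pair. Epithelial keratins, EPCAM, CDH1 and EGFR summed to 9154 to 11100 CPM in controls and 11330 to 13750 CPM in resistant libraries, of which EGFR took 2908 to 5215 and 5102 to 7372 CPM and rose 1.61-fold (adjusted p = 0.0199). Without EGFR the sums were 5806 to 8196 and 6228 to 6518 CPM, which overlapped. Of the receptors that define the triple-negative class, PGR had 0 counts, ESR1 was at 2.12 ± 2.11 CPM in controls and 1.64 ± 0.680 in resistant libraries, and ERBB2 (HER2) at 117 ± 18.3 and 105.5 ± 11.7 CPM (mean ± SD, n = 3). Markers of hepatocytes, the main site of drug metabolism, summed to 0.0295 to 0.125 CPM in controls and 0.0935 to 0.270 CPM in resistant libraries, with APOA2 and TTR at 0. Fibroblast markers summed to 23.3 to 30.5 and 22.5 to 26.2 CPM, nearly all of it COL1A1, with LUM at 0. Leukocyte markers summed to 2.14 to 2.57 CPM in controls and 2.93 to 4.26 CPM in resistant libraries, nearly all of it CD68, and endothelial markers to 9.28 to 25.7 and 15.6 to 66.0 CPM, mostly KDR. The leukocyte sum was higher in every resistant library than in every control, as was the epithelial sum with EGFR, the other sums overlapped, and their part in the differences above was not tested.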

How the data were processed

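RNA-seq libraries were made with the KAPA RNA HyperPrep kit and enriched with Twist exome probes, per the labels' protocols. The authors deposited whole-number read counts per Entrez gene ID, not normalised, with 1 column for each of the 6 libraries. Reads were trimmed with Trimmomatic 0.38, aligned with STAR 2.7.8a to GRCh38 and counted with featureCounts of Subread, per the submitters' processing notes. Genes that overlap can exchange reads, and how they were treated, the strand setting and the annotation release were not given in the sources used here. Of 28395 IDs, 27745 matched a RefSeq gene table of GRCh38.p14, and the 650 others held 0.0327% to 0.0553% of counts. Of all IDs, 9517 had no count in any library.

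Counts were filtered with filterByExpr by group, scaled by TMM and fitted in edgeR 4.0.16 (R 4.3.3) by robust quasi-likelihood with group and batch as terms, leaving 3 residual degrees of freedom (2 with the batch by group term). P-values were adjusted by Benjamini-Hochberg over all 13950 tested genes at a threshold of 0.05, standard errors were derived from the F statistic, and log2 CPM used a prior count of 2. The fit was tested on simulated data. Exon lengths and overlaps came from GENCODE 29. The comparison was repeated with DESeq2 1.42.0 and with voom of limma 3.58.1, with size factors or upper quartiles for scaling, without the filter or at a minimum mean of 1 CPM, without the batch, with the replicate number as a block, on 2021 alone, and leaving out each library. A fit without robust estimation was chosen after seeing the data.

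The 9 genes and the lists were chosen with earlier results of these data known. All 9 genes are named. From each list the rule names up to 3 genes past the threshold in each direction with the smallest adjusted p, or the most abundant gene where none passed, and for AHR and called genes the 2 nearest by pattern at 5 CPM or more. No label tells whether the replicates are separate cultures; p-values thus reflect the spread between libraries, which may be technical. Same-group libraries differed beyond counting noise, with 70.0 to 215 as chi-square per degree of freedom. Deviations of same-numbered control and resistant libraries from their group means correlated across genes at 0.729 (the 2020 pair), 0.143 and 0.155, and crossed numbers within 2021 correlated more, at 0.57 and 0.477. The reported values come from the fit with the batch, and the number served as a block only in an alternative. Intervals and floors (3 counts) cover counting error only, and the labels mention no molecular identifiers.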

Additional observations from a re-analysis of the deposited data

How the results depend on the processing

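In the resistant against control comparison, 1633 genes passed with the batch term, 869 higher and 764 lower. The count was 362 without the batch term, 1012 in the 2021 libraries alone, and 617 (without resistant 3) to 1985 (without control 3) when 1 library was left out. It was 1064 without control 1, 1001 without resistant 1 and 851 without resistant 2. With the replicate block in place of the batch, 1303 genes passed, the UGT1A6 log2 fold change was 1.89 (adjusted p = 0.0145), and of 18 calls named in the text only that of SULT1E1 was lost. The number of the 7 genes that passed was 2 without a filter, 3 by DESeq2, 0 without the batch term and 1 to 2 when 1 library was left out. All 7 differed between batches under the 7 scaling, filter and tool alternatives, and 3 to 7 when 1 library was left out, with 3 without control 1 or resistant 1 and 4 without resistant 2 or 3. The batch coefficient could not be estimated without the batch term, with the block or in 2021 alone, nor the batch by group term without a 2020 library. Of the 18 named calls, 2 held without the batch term (SERPINB2 and NNMT), 10 without resistant 2 and 7 without resistant 3. Signs turned only in values far from the threshold. For ARNT the log2 fold change was 0.026 with upper quartile scaling, 0.010 at a minimum mean of 1 CPM and -0.058 to 0.015 when 1 library was left out, and for CYP1B1 it was -0.027 to 0.26. The batch by group difference (log2) ranged from -0.19 to 0.053 for AHR, -0.40 to 0.65 for CYP1A1 and -0.37 to 0.11 for CYP1B1 when 1 library was left out. CYP2C8, CYP3A5 and UGT1A1 were too low to test, and the 3 other UGT1A genes had only 1 to 12 counts in a control library. The causes of these shifts were not tested.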
